A study of Mus musculus with 6 samples.

Results

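The Egr, Nr4a and Ier genes are immediate early genes, and their accessible chromatin was examined in mouse leukemia cells after loss of 1 Usp18 allele. The members were Egr1, Egr2, Egr3, Nr4a1, Nr4a2, Nr4a3, Ier2, Ier3 and Ier5. Every ATAC-seq peak whose nearest transcription start site (TSS) belonged to a member and lay at most 100000 bp away was taken, which gave 272 of 175929 peaks. Ier2 held 106 of them, Egr1 held 36, Nr4a1 and Nr4a3 held 25 each, Nr4a2 held 24, Egr3 held 22, Ier5 held 19, Egr2 held 9 and Ier3 held 6. Peaks were split by position into 33 start-site peaks, within 1000 bp of the TSS, 156 downstream peaks and 83 upstream peaks, both of the latter more than 1000 bp away. Positions refer to the TSS assigned to each peak, and some upstream peaks, as at Nr4a1, Nr4a2 and Nr4a3, lay inside the annotated gene.

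ATAC-seq marks open DNA through the insertions of a transposase, and 6 libraries were compared, 3 after oil and 3 after tamoxifen. All cells were AE9a leukemia cells, which carry a truncated AML1/ETO fusion, with 1 floxed Usp18 allele (Usp18+/f) and UBCER-Cre, a tamoxifen-activated recombinase whose ubiquitin promoter is active in most cell types. The cells grew in recipient mice, which were given oil (replicates 1, 2 and 4) or tamoxifen (replicates 1, 3 and 4) once sick, and on day 3 from the first injection the Lin- c-Kit+ leukemia cells were sorted out of the spleen. Oil-treated cells therefore kept the floxed allele, tamoxifen deleted it, and no group received tamoxifen without the floxed allele, so that the drug and the loss of Usp18, an ISG15 protease that restrains interferon signaling, cannot be told apart. The labels do not give the mouse behind each library. In the study's methods the mice per group whose cells also went into ATAC-seq equal the libraries here in number, whereas its reporting statement gives fewer replicates for ATAC-seq, so p-values here measure the spread between libraries, which may be technical.

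Libraries held a total of 57.4 to 74.7 M tags, of which 17.5 to 21.1 M lay in peaks. The oil libraries were close to each other (pairs differed with a chi-square of 1.03 to 1.22 per degree of freedom, counting error alone giving about 1), whereas for tamoxifen pairs this was 1.48 to 2.68. The library of tamoxifen replicate 4 was nearer to the oil libraries (Pearson r of log2 tags 0.960 to 0.964 over peaks) than to the other tamoxifen libraries (0.949). Start-site peaks were present at 5 of 6 progenitor markers (all but Mpo), with summed tags of 3651 to 3717 after oil and 3738 to 4101 after tamoxifen. Of these, Cd34 had 73.9, 92.6 and 117 tags after oil and 265, 333 and 212 after tamoxifen. Gata2 had 1135, 1200 and 1186 against 1226, 1307.5 and 1230, also without overlap, and Kit, Myb and Spi1 overlapped between groups. All 7 erythroid markers also had a start-site peak (3442 to 3605 against 3112 to 3352 tags), as did 4 of 8 mature myeloid markers (371 to 378 against 409 to 500.3) and 2 of 6 T-cell markers (181 to 225 against 153 to 174). Among the mature myeloid markers, Fcgr3 had 234, 238 and 237 tags after oil and 305, 358 and 276 after tamoxifen, and Cd14 had 90.5, 84.8 and 90.9 against 68.1, 71.9 and 82.9. Cd3e, Cd3d, Cd4, Cd8a, Ly6g, S100a8, S100a9 and Csf1r had no start-site peak. Tested on start-site tags per gene (DESeq2), 1 progenitor and 1 mature myeloid marker were higher after tamoxifen at an adjusted p under 0.05. At an unadjusted p under 0.05, 1 erythroid and 1 T-cell marker were lower. In bulk cells, a different share of open cells and a different degree of opening per cell cannot be told apart, and the part of cell composition in the results was not tested.

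Immediate early genes are transcribed within minutes of a growth factor, cytokine or stress signal and need no new protein synthesis for it, since the factors that read the signal, such as SRF with its ETS-family partners and CREB, are already present in the cell. The Egr genes encode zinc finger transcription factors, the Nr4a genes encode orphan nuclear receptors that bind DNA without a known hormone, and the Ier genes encode small proteins of varied function. In blood cells Egr1, Nr4a1 and Nr4a3 are known for restraining the expansion of stem cells and leukemia, and the loss of Nr4a1 together with Nr4a3 causes acute myeloid leukemia in mice.

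The sequences that carry the main change are those of the 3 Egr3 peaks that passed the test between tamoxifen and oil. They were read from the mm10 reference on the plus strand, the strand of Egr3, and are named by the distance of their center from the TSS. Capitals mark the matches to the NF-kB consensus, which the first and second hold once each, and to the RUNX site TGTGGT, which each holds once, on the minus strand in those at -20377 and -11473 bp.
Egr3 peak at -98319 bp, chr14:69979014-69979239: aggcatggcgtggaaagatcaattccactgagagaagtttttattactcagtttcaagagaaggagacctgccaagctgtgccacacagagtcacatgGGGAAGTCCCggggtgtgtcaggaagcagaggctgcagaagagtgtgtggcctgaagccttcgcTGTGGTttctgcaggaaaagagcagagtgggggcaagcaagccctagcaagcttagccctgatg
Egr3 peak at -20377 bp, chr14:70056955-70057181: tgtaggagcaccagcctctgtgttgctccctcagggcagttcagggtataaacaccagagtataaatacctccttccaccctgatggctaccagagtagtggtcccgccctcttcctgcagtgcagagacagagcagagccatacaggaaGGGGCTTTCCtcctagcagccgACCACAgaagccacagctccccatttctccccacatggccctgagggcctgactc
Egr3 peak at -11473 bp, chr14:70065850-70066095: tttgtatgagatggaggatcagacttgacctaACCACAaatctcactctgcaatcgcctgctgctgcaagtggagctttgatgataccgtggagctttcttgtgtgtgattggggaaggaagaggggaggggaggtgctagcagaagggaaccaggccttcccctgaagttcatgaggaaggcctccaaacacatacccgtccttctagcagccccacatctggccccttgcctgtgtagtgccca
In 200 bp windows around peak centers, on both strands, 20.96% of all upstream peaks held TGTGGT and 4.45% held the NF-kB consensus. The peaks are shown for their change, and no enrichment was tested.

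Start-site peaks of 5 of the 9 members held a CArG box or a cyclic AMP response element, the sites of SRF and CREB. CArG boxes, the sites of SRF, lay in 5 of 33 member start-site peaks (15.2%) against 0.763% of all 30404 start-site peaks, and they belonged to Egr1, Egr2 and Egr3. Of all 14455 genes with a start-site peak, 1.58% had such a match. The response element (CRE) TGACGTCA, the site of CREB, lay in start-site peaks of Nr4a2 and Ier2, against 3.40% of all genes. Of these sites, those of Egr2 and Nr4a2, whose promoters were in the RefSeq table, are shown. The CArG box or CRE is in capitals and the mm10 plus strand is printed.
Egr2 CArG box in the peak at -367 bp, chr10:67537484-67537513: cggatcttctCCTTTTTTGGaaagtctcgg
Egr2 CArG box in the peak at -89 bp, chr10:67537787-67537816: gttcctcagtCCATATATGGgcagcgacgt
Nr4a2 CRE in the peak at 32 bp, chr2:57115067-57115096: tatttccgaccTGACGTCAcgactggggct
The NF-kB consensus occurred in start-site peaks of 5 of the 9 members (Egr1, Egr3, Nr4a1, Nr4a2 and Ier3) against 14.7% of all genes. Counted by peak, it lay in 6 of 33 member start-site peaks (18.2%) against 7.50% of all start-site peaks. The NR4A monomer site AAAGGTCA occurred in start-site peaks of none (0 of 9) of the members, against 0.982% of all genes. The ETS site CCGGAAGT, searched for the ETS-family partners of SRF, was in start-site peaks of none (0 of 9), against 7.24% of all genes. The EGR site was in those of 3 of 9 (7.53% of all genes) and the RUNX site in those of 3 of 9 (18.3%). The AP-1 site was in those of 1 of 9 (7.66%) and part of the heat shock element in those of 2 of 9 (6.62%). A match describes the letters and not binding.

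Start sites of all 9 members were open in every library, and their order was kept by both groups with few overlaps. Per kb of start-site peak, in tags scaled by the size factors of DESeq2 (normalized tags), the mean after oil was 3791 ± 118 (SD, n = 3) for Ier5, 2688 ± 54.2 for Ier3, 2415 ± 119.5 for Ier2 and 1916 ± 58.0 for Egr1. It was lower for Nr4a2 (1078 ± 25.4), Egr2 (936 ± 15.4), Nr4a1 (797 ± 19.3), Nr4a3 (638 ± 19.8) and Egr3 (281 ± 13.5), so that the level of Ier5 was above that of Egr3 in every library. Neighbors in this order did not overlap between the oil libraries. After tamoxifen the ranges of Ier3 (2413 to 2976) and Ier2 (2225 to 2448) overlapped, as did those of Egr2 (892 to 927) and Nr4a1 (786 to 920.4). Peak width enters these levels, since the single start-site peaks of Ier5 and Ier3 covered 201 and 208 bp and the 7 of Nr4a3 covered 2022 bp.

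**Figure D1:**
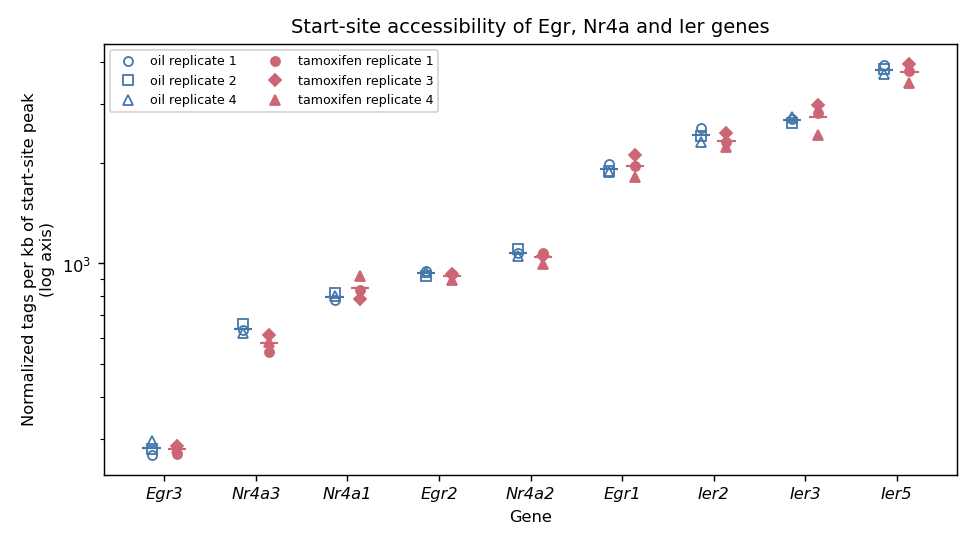
Normalized tags per kb of start-site peak (log axis) for the 9 genes, with 1 point per library, open blue for oil and filled red for tamoxifen, and a bar at each group mean. The Egr3 start site has the lowest level and that of Ier5 the highest in every library, and oil and tamoxifen points overlap for every gene but Nr4a3.

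None (0 of 9) of the members was called on its start-site tags, against 2.57% of 14458 genes (adjusted p under 0.05, DESeq2 with Benjamini-Hochberg adjustment over all genes with such a peak). Summed log2 changes, tamoxifen over oil, ran from -0.14 to 0.09 with a median of -0.03, beside 0.00 over all genes tested. At an unadjusted p under 0.05 there was 1 member, Nr4a3, and edgeR called none (0) as well.

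At the start site of Egr1, a growth-factor-induced zinc finger factor, the summed tags were 1880.2, 1798 and 1776 after oil and 1850.0, 1996 and 1718 after tamoxifen, with overlap (log2 change 0.03, 95% interval -0.08 to 0.14). For Egr2, known from hindbrain and myelin development and from macrophage and T-cell programs, they were 1323, 1282 and 1314 against 1295, 1295 and 1246 (-0.03, -0.14 to 0.08). The peak at -89 bp, which holds the CArG box shown above, had 452, 423 and 425 tags against 449, 436 and 426. The Egr1 peak at -53 bp had 723, 681 and 650 tags against 672, 749 and 667. Both genes thus had start-site sums that overlapped between groups.

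For Egr3, which shares its DNA site with Egr1 and acts in lymphocytes, muscle spindles and neurons, start-site tags were 468, 489 and 515 after oil and 470, 498 and 493 after tamoxifen (log2 change -0.01, 95% interval -0.18 to 0.16). Its TSS peak at -58 bp was small, with 54.1, 57.0 and 51.1 tags against 62.3, 45.1 and 67.5. The groups overlapped on both measures.

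Nr4a1 (Nur77), a receptor induced in lymphocytes by antigen, had 972, 1019.5 and 1003 start-site tags after oil and 1045, 985 and 1153 after tamoxifen (log2 change 0.09, adjusted p = 0.936 in DESeq2). Its TSS peak at -54 bp (chr15:101266651-101266933) had 560.4, 597 and 559 tags against 665, 617 and 663. All 3 tamoxifen values of that peak lay above the oil values, yet the difference of 0.18 did not pass the test (DESeq2, adjusted p = 0.501).

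Nr4a2 (Nurr1), known for its role in dopamine neurons, had 1848, 1895 and 1808 start-site tags after oil and 1849, 1812 and 1716 after tamoxifen (log2 change -0.05). The peak at 32 bp, with the CRE shown above, had 660.2, 619 and 612 tags against 581, 610.02 and 592, so that every tamoxifen value was lower, by a log2 change of -0.08 that did not pass (DESeq2, adjusted p = 0.916). Nr4a3 (Nor1) had 1276, 1334 and 1257 start-site tags against 1100.4, 1235 and 1182. Here too every tamoxifen library lay under every oil library (log2 change -0.14, 95% interval -0.26 to -0.02), and the difference did not pass the adjustment (DESeq2, adjusted p = 0.349). The Nr4a3 peak at -68 bp had 40.8, 45.3 and 37.6 tags against 27.5, 30.1 and 34.9, without overlap (-0.41, DESeq2 adjusted p = 0.823).

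The 3 Ier genes had overlapping groups at their start sites. Ier2 had 1853, 1757 and 1679 tags after oil and 1686, 1787 and 1624 after tamoxifen (log2 change -0.05, 95% interval -0.16 to 0.05). Its peak at -13 bp had 1088, 1020 and 979 tags against 986, 1049 and 946. Ier3 (IEX-1), a stress-induced regulator of survival, had 562, 547 and 568 against 585, 619 and 502 (0.02, -0.15 to 0.20). Ier5, which is known to bear on heat shock factor activity, had 785, 764 and 737 against 757, 794 and 694 (-0.03, -0.17 to 0.12).

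Downstream of the TSS, none (0 of 8) of the members with such peaks was called, against 4.76% of 14950 genes, and Ier3 had no downstream peak. The changes ran from -0.25 to 0.06 with a median of -0.04, beside 0.04 over all genes tested, and no member (0) reached an unadjusted p under 0.05 with DESeq2 or was called by edgeR. The difference between the downstream and the start-site change of a gene was tested directly as an interaction. It passed in none (0 of 8) of the members with either tool, against 0.452% of 10832 genes with DESeq2, and in none (0) at an unadjusted p under 0.05, with log2 differences from -0.21 (Nr4a2, 95% interval -0.54 to 0.12) to 0.07 (Ier2, -0.13 to 0.27).

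Ier2 stood out for how many peaks lay downstream of it. Its 94 downstream peaks were the second largest number among all genes with such peaks (rank 2 of 14950), and 63 of them, from 23431 to 99242 bp, overlapped Cacna1a, which encodes the pore subunit of a neuronal calcium channel and lies in the same stretch. The 31 peaks before Cacna1a summed to 7677, 7485 and 7619 tags after oil and 8633, 8069 and 6728 after tamoxifen, and those over Cacna1a to 4941, 4983 and 4921 against 5045, 5009.9 and 4757. Tamoxifen replicate 4 was the lowest library in both parts, and replicates 1 and 3 lay above the oil libraries in both. Over all 94 peaks the log2 change was 0.02 (95% interval -0.14 to 0.18).

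The accessible stretch next to Ier2 was the densest. In the first 10000 bp the level was 1579.7, 1524 and 1576 tags per kb of peak after oil and 1714, 1678 and 1386 after tamoxifen, and in each of the further bins of 10000 bp it was at most 309.6 in any library. In the bin from 10000 to 20000 bp the library of tamoxifen replicate 1 stood at 291, while the other 5 libraries lay between 144 and 180. The peak at 13561 bp (chr8:84649022-84649560) was of this kind, with 37.5, 31.2 and 34.0 tags after oil and 82.2, 45.7 and 34.0 after tamoxifen (log2 change 0.65, DESeq2 adjusted p = 0.552). In the Cacna1a stretch, the peak at 95062 bp (chr8:84567605-84567976) had 223, 211 and 202 tags against 252, 268 and 249, without overlap (0.28, DESeq2 adjusted p = 0.467).

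**Figure D2:**
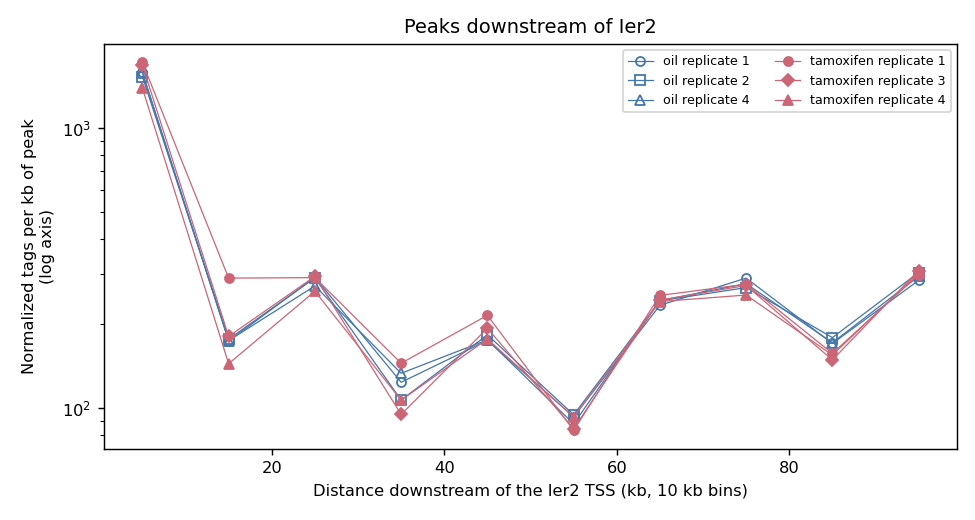
Normalized tags per kb of peak (log axis) in bins of 10000 bp downstream of the Ier2 TSS, with 1 line per library. All 6 libraries fall steeply after the first bin, and tamoxifen replicate 1 lies apart in the second bin (291 tags per kb).

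Ier5 had 12 downstream peaks with 2929, 2704 and 3099.6 tags after oil and 2799, 3306 and 2224 after tamoxifen (log2 change -0.07, 95% interval -0.30 to 0.16). The tamoxifen libraries held the highest and the lowest value, and replicate 4 was the lowest. The log2 changes of these peaks went from 0.21 at 1574 bp to -0.34 at 7965 bp, where the tags were 115, 129 and 113 against 148, 98.1 and 35.9. None (0) of the 12 reached an unadjusted p under 0.05.

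Egr1 had 24 downstream peaks, which summed to 2843, 2844 and 2802 tags after oil and 2799, 2847 and 2754 after tamoxifen (log2 change -0.02, 95% interval -0.16 to 0.13). The peak at 9959 bp (chr18:34871036-34871296) had 28.1, 32.2 and 33.2 tags against 42.0, 62.4 and 41.9 (0.63, DESeq2 adjusted p = 0.505). That at 27868 bp (chr18:34888971-34889179) went the other way, with 262, 249.6 and 299 against 217, 213 and 239 (-0.28, DESeq2 adjusted p = 0.469). The groups overlapped at neither peak. The upstream peak at -4802 bp (chr18:34856291-34856519) also did not overlap, with 278, 274 and 283 against 333, 457 and 322 (0.41, DESeq2 adjusted p = 0.112), and it passed without tamoxifen replicate 4 (adjusted p = 0.0117). The log2 change of all 8 upstream peaks of Egr1 together was 0.02.

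Upstream, Egr3 rose and was the sole member of 9 called on its summed tags, against 4.84% of 12590 genes (4.15% higher). The 15 upstream peaks of Egr3 held 1679, 1636 and 1740 tags after oil and 2125, 2388 and 2100.2 after tamoxifen. Every tamoxifen library lay above every oil library, with means of 1685 ± 52.3 (SD, n = 3) and 2204 ± 159 (SD, n = 3). The log2 change was 0.39 (95% interval 0.24 to 0.53, DESeq2 adjusted p = 3.72e-05). Upstream peaks made up 75.1% of all Egr3 tags after oil and 79.8% after tamoxifen.

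Of all 272 peaks, 1 was called at an adjusted p under 0.05 and a fold over 2 (DESeq2), and it was higher after tamoxifen, beside 0.654% of all 175929 peaks (0.588% higher). It lay at -98319 bp from the Egr3 TSS, in an intron of Pebp4, the neighboring gene, whose protein belongs to the phosphatidylethanolamine-binding family. It had 37.0, 45.3 and 43.9 tags after oil and 172, 187 and 121 after tamoxifen. The lowest tamoxifen library, replicate 4, stood well above the highest oil library, and the fold was 3.80 (log2 change 1.92 ± 0.23 SE, adjusted p = 1.84e-13).

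At an adjusted p under 0.05 without a limit on the fold, 3 member peaks passed, all higher and all upstream of Egr3, beside 1.39% of all peaks (1.22% higher and 0.167% lower). The peak at -11473 bp, between genes, had 117, 100.4 and 109 tags after oil and 194, 217 and 169 after tamoxifen (log2 change 0.82, DESeq2 adjusted p = 2.68e-04). The peak at -20377 bp, in the last Pebp4 intron, had 114, 105 and 105 tags against 169, 218 and 173 (0.79, adjusted p = 9.12e-04). Groups overlapped at neither. Without tamoxifen replicate 3 the peak at -20377 bp no longer passed (adjusted p = 0.0995), and the other two did. The sequences of all 3 are those printed above.

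Another 5 upstream Egr3 peaks reached an unadjusted p under 0.05 without passing the adjustment (DESeq2), and all 5 were higher. Next to the called peak, that at -98829 bp (chr14:69978505-69978728) had 22.1, 13.2 and 17.0 tags after oil and 38.2, 38.4 and 31.2 after tamoxifen (log2 change 1.04, adjusted p = 0.185). The others lay at -55804 bp (0.43), -21030 bp (0.42), -7992 bp (0.58) and -1487 bp (0.59), with adjusted p of 0.276, 0.251, 0.246 and 0.201. Those at -98829, -55804 and -21030 bp lay in introns of Pebp4, like the peaks at -98319 and -20377 bp. In each of the 5 peaks every tamoxifen library was above every oil library. Without tamoxifen replicate 4 the peak at -1487 bp passed (DESeq2 adjusted p = 0.0347). The peaks at -98829 and -1487 bp were listed from the tamoxifen group alone. A peak that entered the table through 1 group tends to be high there, so the direction of these peaks may owe to that selection, which was not tested.

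Of the 15 upstream peaks, 11 were listed from both groups, 2 from the tamoxifen group alone and 2 from the oil group alone. Over these 15, 14 had a log2 change above 0 and 9 did not overlap between groups and were higher, against 11.9% of all peaks that did so. The exception was the peak at -9339 bp with 20.8 ± 0.31 tags (SD, n = 3) after oil and 12.1 ± 7.28 after tamoxifen (log2 change -0.80). The highest Egr3 peak, at -2483 bp, which holds a CArG box, had 437 ± 3.93 tags against 456 ± 8.76 (0.06). Without the called peak the other 14 summed to 1643 ± 52.8 after oil and 2045 ± 136 after tamoxifen, a log2 ratio of 0.32, so the rise was not that of 1 peak.

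**Figure D3:**
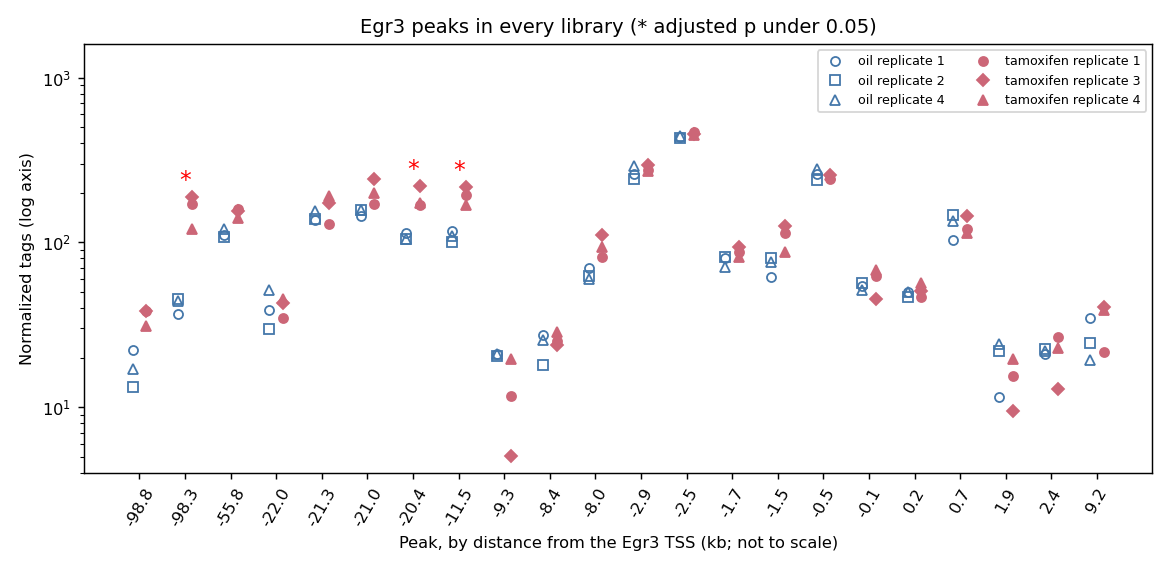
Normalized tags (log axis) of all 22 Egr3 peaks in order of distance from the TSS, with 1 point per library, open blue for oil and filled red for tamoxifen. The 3 peaks marked with an asterisk, at -98319, -20377 and -11473 bp, have an adjusted p under 0.05 and no overlap between groups, and the peaks from -0.5 to 0.7 kb overlap.

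The limit of 100000 bp ran through this cluster. Just inside lay the peak at -98829 bp (log2 change 1.04), and just outside lay one at -100068 bp (chr14:69977267-69977488), which had 9.38, 15.1 and 17.0 tags after oil and 46.4, 51.8 and 25.6 after tamoxifen (1.56, DESeq2 adjusted p = 0.0160). For Ier2, which also had peaks near the limit, the one just inside lay at 99242 bp and the one just outside at 100997 bp (-0.05). The table held 10 peaks of other genes within 50000 bp of the outermost Egr3 peaks, all on the downstream side of Egr3 and assigned to Bin3 or Ccar2, and none (0) reached an unadjusted p under 0.05.

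**Figure D4:**
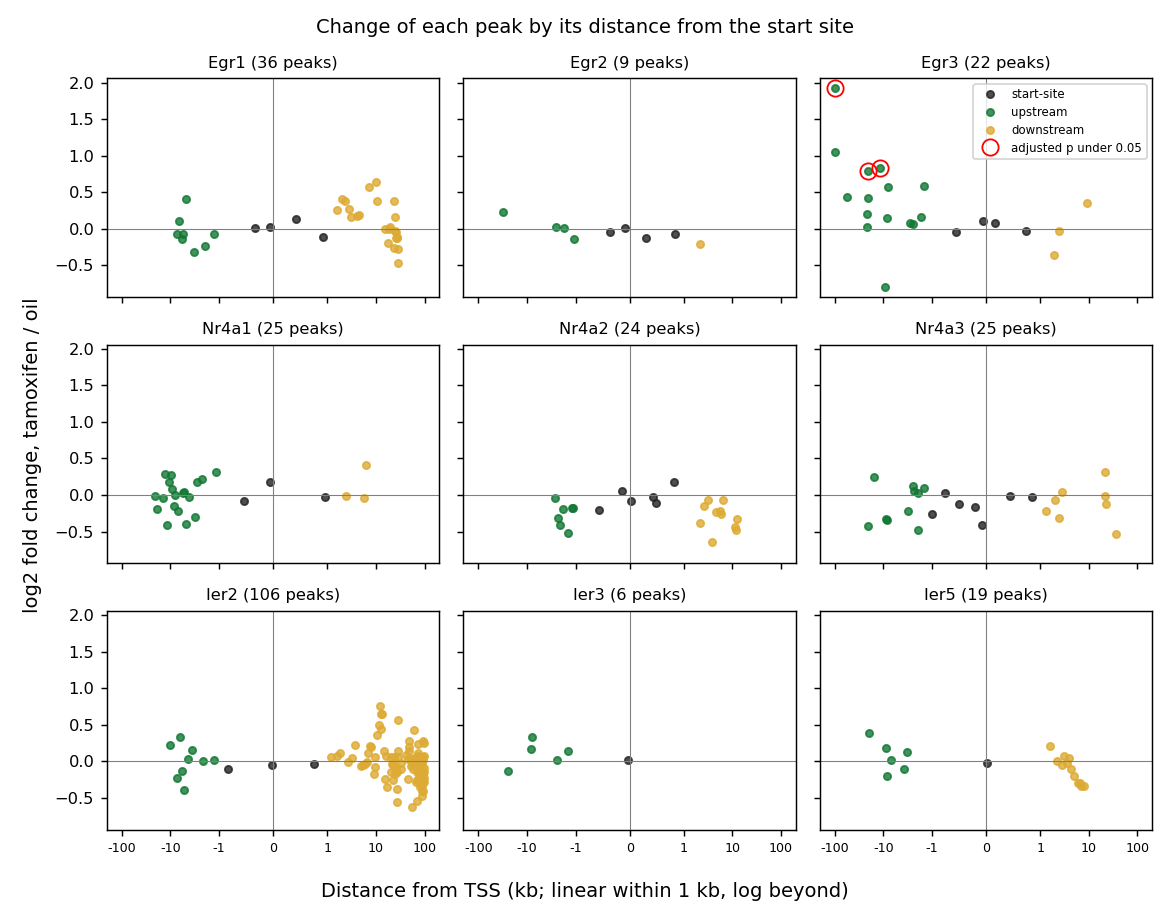
Log2 fold change of each of the 272 peaks, tamoxifen over oil, against its distance from the TSS (linear within 1 kb, log beyond), in a panel per gene, with start-site peaks black, upstream peaks green and downstream peaks yellow. The 3 circled peaks with an adjusted p under 0.05 all lie upstream of Egr3, and Nr4a2 peaks lie mostly under 0.

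Over all 272 peaks the median log2 change was -0.02, beside -0.01 over all 167218 peaks within the same distance of a TSS. Unadjusted p under 0.05 was reached by 13 higher and 3 lower peaks, beside 6.18% and 2.84% of all peaks. Without Egr3 the other 250 peaks gave 5 higher and 3 lower. Groups did not overlap at 22 peaks that were higher and 31 that were lower, beside 11.9% and 10.0% of all peaks.

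The Nr4a peaks leaned to lower tags, without any call. Of the 74, 16 did not overlap and were lower (21.6%, beside 10.0% of all peaks) and 2 did not overlap and were higher, with a median log2 change of -0.08. The lower ones came from Nr4a2 (6), Nr4a3 (6) and Nr4a1 (4). Of the 74 peaks, 18 were listed from the oil group alone and 5 from the tamoxifen group alone, and a peak that entered the table through 1 group tends to be high there. Of all 167218 peaks within 100000 bp of a TSS, 29350 were listed from the oil group alone and 18319 from the tamoxifen group alone.

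The lowest median of the 9 members was that of Nr4a2. Of its 24 peaks 2 had a log2 change above 0, and the median was -0.20. The part played in this lean by how peaks entered the table was not tested. Nr4a2 had 7 of the 24 listed from the oil group alone, 0 from the tamoxifen group alone and 17 from both. Its 7 upstream peaks held 1276, 1337 and 1222 tags after oil and 1063, 1126 and 1149 after tamoxifen, so that the tamoxifen libraries were all lower (log2 change -0.20, 95% interval -0.35 to -0.05), and the difference did not pass (DESeq2 adjusted p = 0.130). It did pass with edgeR (adjusted p = 0.0491) and without tamoxifen replicate 4 (DESeq2 adjusted p = 0.0270). Of the 7 upstream peaks, those at -2670, -2264, -1811 and -1185 bp lay inside the annotated Nr4a2 gene.

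The Nr4a2 peak at -2264 bp (chr2:57117149-57117455), in its first intron by a longer transcript, had 191, 223 and 214 tags against 165, 172 and 171 (-0.31, DESeq2 adjusted p = 0.455). The 11 downstream peaks held 393, 403 and 491 tags against 311, 343 and 425, with overlap (-0.25, DESeq2 adjusted p = 0.336). Without tamoxifen replicate 4 the downstream change was -0.39 and passed (DESeq2 adjusted p = 0.0238). Of the 11 downstream peaks, 5 were listed from the oil group alone and 0 from the tamoxifen group alone.

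For Nr4a3, the 8 downstream peaks held 411, 429.5 and 435 tags after oil and 389, 388 and 402 after tamoxifen, without overlap (-0.11, DESeq2 adjusted p = 0.663), whereas its 10 upstream peaks summed to 1506 ± 51.7 against 1516 ± 59.9 (SD, n = 3). The peak at 36487 bp (chr4:48087607-48087859) had 82.7, 69.2 and 67.6 tags against 42.0, 41.2 and 67.5 (-0.54, DESeq2 adjusted p = 0.4998). Nr4a1, with 19 upstream peaks, gave 2067 ± 88.7 tags after oil and 2088 ± 21.9 after tamoxifen (0.01). The upstream peaks of Nr4a1 from -11898 to -1147 bp lay inside the annotated gene (chr15:101254269-101274795). At Nr4a3 the upstream peaks at -2504, -1963 and -1454 bp also lay inside the gene.

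The remaining sums overlapped between groups. Downstream, Nr4a1 had 84.9, 78.5 and 88.7 tags after oil and 92.8, 96.4 and 74.0 after tamoxifen, and the 3 small Egr3 peaks there had 67.3, 68.7 and 65.4 against 63.8, 63.0 and 81.0. Upstream, Egr2 had 727, 701 and 697 against 695, 740.4 and 670.0, and Ier2 had 1399, 1385 and 1368 against 1372, 1440.1 and 1359. The log2 changes of the upstream sums of Ier3 and Ier5 were -0.03 (95% interval -0.24 to 0.18) and 0.04 (-0.22 to 0.29). For Egr2, Ier3 and Nr4a2, start-site peaks held over 50% of the tags of the gene, with 63.8%, 55.7% and 52.0% after oil and 63.6%, 56.5% and 54.9% after tamoxifen.

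**Figure D5:**
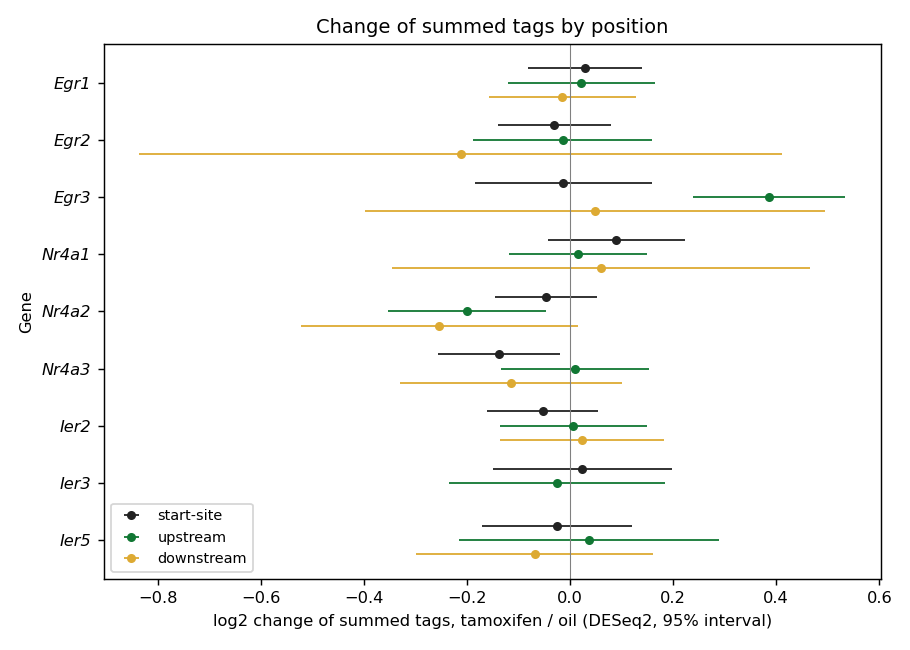
Log2 change of summed tags, tamoxifen over oil, for the start-site (black), upstream (green) and downstream (yellow) peaks of each gene, with the 95% interval of DESeq2. The Egr3 upstream interval (0.24 to 0.53) lies above 0, those of Nr4a2 upstream (-0.35 to -0.05) and Nr4a3 start-site (-0.26 to -0.02) lie below it before adjustment, and the others cross it.

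Other immediate early genes were counted in the same way. Of 34 listed symbols 33 had peaks, and the other was a second name of Cyr61, which had peaks. Of the 804 peaks of this list, 0 were called by DESeq2 at a fold over 2 (1 by edgeR), beside 0.654% of all peaks. At an adjusted p under 0.05 alone, 13 were higher and 1 lower (1.62% and 0.124%), near the 1.22% and 0.167% of all peaks. Unadjusted p under 0.05 was reached by 69 higher and 9 lower peaks (8.58% and 1.12%, beside 6.18% and 2.84% of all peaks), and the median log2 change was 0.08. Of the 13 higher, 11 lay from 1477 to 7332 bp downstream of Jun, an AP-1 subunit, and 1 each by Dusp2 and Dusp6, which encode MAP kinase phosphatases, and the lower one lay at -6144 bp from Dusp1 (120.3 tags after oil, 59.9 after tamoxifen).

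On summed tags (DESeq2) Jun was called at the start site (log2 change 0.21), downstream (0.72, adjusted p = 6.77e-10) and for the difference between them (0.51, adjusted p = 0.00889). Other calls were Dusp2 (0.27) and Fosl2 (0.25) at the start site, Arc (0.48) and Dusp6 (0.87) downstream, and Fosl2 (0.32) upstream, all higher. These made 3 of 32 genes at the start site, beside 2.57% of all genes, and 3 of 31 downstream, beside 4.76%. Upstream it was 1 of 31, beside 4.84%, and for the difference 1 of 30, beside 0.452%. Among the upstream factors and EGR corepressors (Elk, Creb1, Mkl1, Mkl2, Nab1, Nab2, MAP kinase and Rsk genes), 12 of 14 listed symbols had peaks. The others were second names of Mkl1 and Mkl2. Of the 248 peaks of this list none (0) passed the adjustment in DESeq2, beside 1.39% of all peaks. At an unadjusted p under 0.05 there were 10 higher and 10 lower (4.03% each), beside 6.18% and 2.84% of all peaks.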

How the data were processed

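The authors mapped reads to mm10 with Bowtie2, called peaks with HOMER, merged the peak lists of the groups and quantified tags in each library. The deposited tags are an unnormalized estimated count per peak, given in steps of 0.5 and capped at 3 tags per position. A score per peak that the authors carried over from their peak lists was deposited too and not used. Peaks were called on the libraries that were then compared, and the cap lowers the tallest peaks. Nearest gene, distance and annotation are those of the deposited table. Gene names of overlapping genes came from GENCODE vM21 and sequences from the RefSeq mm10 genome, in which 0 peaks on 21 chromosomes ended beyond the reference. Promoters of 6 of 9 members were in the RefSeq table.

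Tags were rounded and fitted over all 175929 peaks with DESeq2 1.42.0 (R 4.3.3), by a Wald test of tamoxifen against oil with Benjamini-Hochberg adjustment. The study left out peaks within 3000 bp of a TSS, whereas start-site peaks were kept here. Tags were also summed per gene for start-site, downstream and upstream peaks, and fitted over all genes with the size factors of all peaks. The difference between downstream and start-site changes was an interaction with library as a block. edgeR 4.0.16 (quasi-likelihood, robust), other size factors, filters, limits and left-out libraries were alternatives. The fits were tested on simulated data. The text gives the peak nearest each TSS, every called peak and every member peak with an unadjusted p under 0.05, and among other immediate early genes those with a call. Members and lists were chosen with earlier results of these data known. Motif matches were counted on both strands in 200 bp around peak centers. The B-cell markers are not reported here.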

Additional observations from a re-analysis of the deposited data

How the results depend on the processing

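The count of 1 member peak called became 2 with edgeR, which added the Egr3 peak at -98829 bp (adjusted p = 0.0240). That peak was listed from the tamoxifen group alone, so it tends to be high there by selection. The count was 3 with no fold limit and 0 with a distance of at most 50000 bp, which leaves out the called peak. It was 1 to 1 when each library was left out in turn. For other immediate early genes the count of 0 peaks became 1 with size factors from total tags in peaks (lower), 1 from total mapped tags (higher), 1 with edgeR (lower), 2 when distal and promoter-proximal peaks were fitted separately, 1 at an adjusted p under 0.1 and 14 with no fold limit. It was 0 to 8 when each library was left out, with 8 without tamoxifen replicate 4. Members called on upstream tags numbered 1, and 2 with edgeR, 0 at a fold over 2 and 1 to 2 with a library left out, the 2 being without tamoxifen replicate 4. On downstream tags they numbered 0, and 0 to 1 with a library left out (Nr4a2, without tamoxifen replicate 4). Start-site calls and calls of the difference stayed at 0 under every alternative run. The Egr3 upstream log2 change was 0.61 at a start-site limit of 3000 bp and 0.29 within 50000 bp (DESeq2 adjusted p = 0.00584). The cause of these changes was not tested, apart from the distance limit, which leaves out peaks by construction.

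Replicate numbers 1 and 4 occur in both groups. No label states that they pair libraries, and the deviations of same-numbered libraries from their group means correlated by -0.0440 and 0.0508. With the replicate block, which keeps 4 libraries, the upstream count was 0 (Egr3 log2 change 0.30), the Egr3 peaks at -20377 and -11473 bp did not pass (log2 changes 0.64 and 0.68, DESeq2 adjusted p = 1.00 for both), and that at -98319 bp was still called (log2 change 1.82, adjusted p = 0.0377).

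Of 785 recomputed values of single peaks and sums, 6 came newly under an adjusted p of 0.05 and 4 were no longer under it, all named in the text with their setting. The sign turned in 54 of the 785, where neither the reported value nor the alternative passed, and in 0 of those that had reached an unadjusted p under 0.05. Depth limits the smallest peaks, since the median peak of the table held 45.0 to 57.0 tags per library.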
